A study of Homo sapiens with 4 samples.

Results

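The abundant nuclear and cytoplasmic long noncoding RNAs (lncRNAs) examined here were 9 genes listed by name in 3 classes. NEAT1, MALAT1 and KCNQ1OT1 are retained in the nucleus, NORAD, OIP5-AS1 and CYTOR are largely exported to the cytoplasm, and TUG1, PVT1 and CCAT1 were kept apart as other lncRNAs. Gene names were joined to the Ensembl identifiers of the count table through GENCODE v44, and 8 of the 9 lncRNAs were found among the 63677 genes of the table. CCAT1 had no identifier in that release and was not analysed here. All 8 matched lncRNAs passed the filter on low counts and were among the 14645 genes tested.

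The libraries are RNA immunoprecipitation sequencing (RIP-seq) of nuclear lysates of HCT116, a human colorectal carcinoma line grown in RPMI medium. All cells, those of the reference samples included, had been transfected for 48 h with pcDNA3.1-ORC1-3xFLAG, a plasmid that encodes tagged ORC1, a DNA-binding subunit of the origin recognition complex that marks replication start sites. Tagged ORC1 was precipitated without crosslinking with the FLAG antibody M2 (IP, 2 libraries), and RNA of the lysate before precipitation is the Input (2 libraries). An IP with a control antibody, untransfected cells and endogenous ORC1 were not analysed here, so a value below 0 in log2 IP/Input means only a smaller share of the IP than of the Input reads. Nothing in the labels says that replicates 1 and 2 came from separate cultures. The p-values measure the spread between these 4 libraries, estimated partly from all genes together, and that spread may be technical.

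The nuclear retained lncRNAs are found at different places within the nucleus. NEAT1 is the scaffold of paraspeckles, ribonucleoprotein bodies that hold the proteins NONO, SFPQ and PSPC1. MALAT1 accumulates in nuclear speckles, which are rich in splicing factors, and KCNQ1OT1 is an antisense transcript that stays at its imprinted locus and silences neighbouring genes on the paternal chromosome. NORAD, by contrast, is exported and binds the Pumilio proteins, which repress mRNAs that carry their recognition element.

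The sequences below show the feature for which NORAD is known, on the strand of the transcript, because no other member carried it so often. NORAD is a gene of 1 exon at chr20:36045618-36051018 on the minus strand (GRCh38, 5401 exonic bases). Its transcript held 15 copies of the Pumilio response element, spelled TGTANATA and searched on the transcript strand only, or 2.78 per kb. The element occurred at least once in 32.6% of the longest transcripts of 14265 tested genes and in 18.98% of those of 1096 tested lncRNA genes, and a density as high as that of NORAD was reached by 0.0140% of tested genes, NORAD included. Of the other members, KCNQ1OT1 held 9 copies over a transcript of 91667 bases, NEAT1 6, TUG1 2 and OIP5-AS1 1, while MALAT1, CYTOR and PVT1 held 0. A match is a run of letters and was not measured as a binding site. Each line gives the element in capitals and its flanks, 5′ to 3′, at chr20:36049804-36049831, chr20:36049703-36049730, chr20:36047972-36047999 and chr20:36047351-36047378.
NORAD element at transcript base 1198: ctcactactgTGTATATAgttgacaatg
NORAD element at transcript base 1299: aatcacatttTGTAAATAcctttttgtt
NORAD element at transcript base 3030: aaccctactgTGTATATAgcggacaaac
NORAD element at transcript base 3651: aatgctactgTGTATATAatggaaaact

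The tandem GAA repeat was counted because GAA-rich sequence is a property the study examined in RNA bound by ORC1. From crosslinking (iCLIP) and gel-shift assays, the study concluded that the repeat is not what ORC1 binds through. It also shows NEAT1 among the RNAs bound by ORC1, with RIP-seq enrichment, crosslinking peaks and GAA repeats marked at the locus. Those data were not analysed here. A run of 3 GAA units was present in the longest transcripts of NEAT1 and KCNQ1OT1, 1 copy in each, and in none of the other 6. The share of all tested genes with such a run in the longest transcript was 13.6%, and that of lncRNA genes 4.20%. These shares are not corrected for length. The transcripts of NEAT1 and KCNQ1OT1 have 22743 and 91667 bases, while the median is 3685 bases for tested genes and 2355 for lncRNA genes. The KCNQ1OT1 run starts at base 42815 of the longest transcript, and its canonical transcript of 679 bases was not searched. The windows below lie at chr11:65427875-65427903 on the plus strand and at chr11:2657162-2657190 on the minus strand (GRCh38), with the repeat in capitals. Both transcripts have 1 exon, and both windows lie in it.
NEAT1 window with the repeat: ctggcatgctGAAGAAGAAttgattcacg
KCNQ1OT1 window with the repeat: caatattcttGAAGAAGAAcaaggtggga

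Input replicate 1 held 14677002 counts and Input replicate 2 held 9213877, and the IP libraries were deeper, with 27483148 and 20280445. Levels are counts relative to the library total (CPM) after TMM scaling, which sets the bulk of genes equal between libraries, so they are shares of a library, and fewer cells with an RNA and less RNA per cell cannot be told apart. ORC1, whose reads may include some from the plasmid, stood at 1108 and 18551 CPM in IP replicates 1 and 2. In the Inputs it was at 333 and 5063 CPM, a 15.2-fold difference. The study describes the ORC1 insert as codon-optimized, so how far plasmid reads align to the gene is not known. Its log2 fold change of IP over Input was 1.87 ± 1.42 (SE; edgeR adjusted p = 0.374), or 1.80 with a term for the replicate (adjusted p = 3.16e-06). The epithelial markers EPCAM, KRT8, KRT18 and CDH1 were all present in both Inputs (46.8 to 1087 CPM), PECAM1 of endothelium was listed at 0, and PTPRC of leukocytes did not exceed 0.048 CPM. COL1A1, a fibroblast collagen, was at 7.90 and 10.8 CPM in the Inputs and 21.6 and 26.7 CPM in the IPs. The part of the ORC1 read level or of these markers in the lncRNA values was not tested.

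All 8 lncRNAs were lower in the IP than in the Input of the same replicate, in both replicates. The median log2 fold change of the 8 was -1.35, against 0.01 over all tested genes and -0.71 over the 1096 tested lncRNA genes. These sets differ in level, with a median mean Input of 58.6 CPM for the 8, 19.2 for all tested genes and 1.47 for lncRNA genes. The lncRNA genes are thus a comparison at a much lower level. With group as the only term of the fit, 2 of the 8 (NORAD and CYTOR) were called depleted, which requires a Benjamini-Hochberg adjusted p below 0.05 in the edgeR quasi-likelihood test and a log2 fold change below -1, and 0 were called enriched. Of all tested genes 8.3% were depleted and 10.5% enriched, and of lncRNA genes 6.75% and 0.274%. Before adjustment, 4 of the 8 had p below 0.05 in this test. The share of all tested genes below that level was not computed, so this count has no comparison.

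Input and IP libraries with the same number come from the same RIP replicate, and a fit with the replicate as a block called 6 of the 8 depleted, all but TUG1 and PVT1. This fit leaves little information on the spread of a single gene, so edgeR takes it largely from all genes together. Its SE and p-values can thus look firmer than a gene's own ratios. For NEAT1 the ratios within replicates were -1.38 and -2.52, beside an SE of 0.26. In that fit 13.4% of all tested genes and 32.5% of lncRNA genes were depleted, and 13.4% and 1.92% enriched. An IP level below Input in both replicates, found for all 8, held for 41.7% of tested genes and 67.5% of lncRNA genes. The members' direction was therefore that of most lncRNA genes. TUG1, classed as protein-coding in GENCODE v44, is not in the lncRNA counts.

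**Figure D1:**
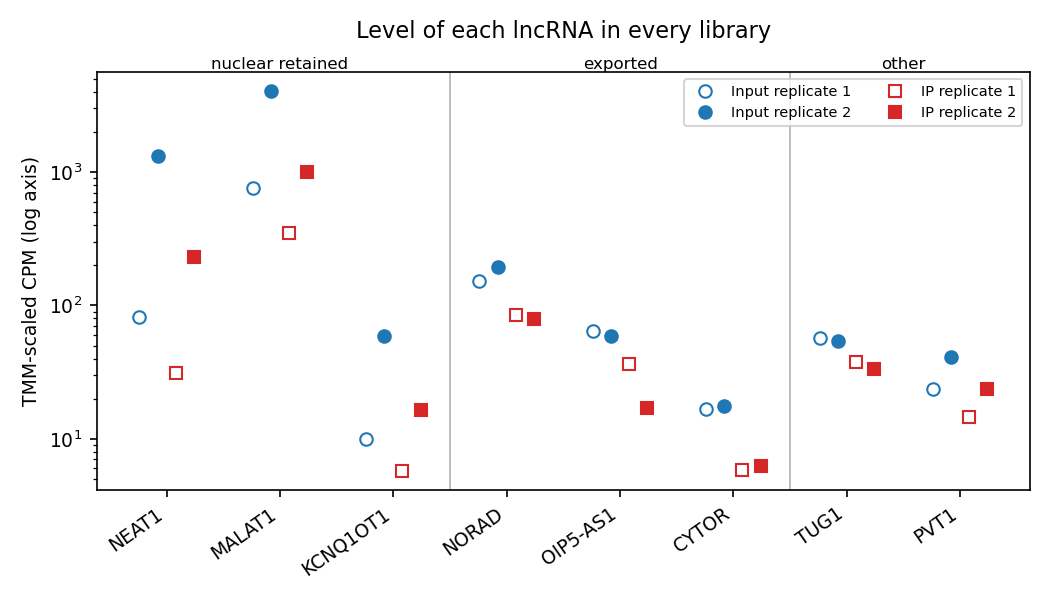
TMM-scaled CPM (log axis) of each of the 8 matched lncRNAs in the 2 Input libraries (circles) and the 2 IP libraries (squares), open for replicate 1 and filled for replicate 2. In the nuclear retained class Input replicate 2 stands far above Input replicate 1, and the IP of replicate 2 exceeds the Input of replicate 1, while in the other classes both IP symbols lie below both Input symbols.

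Of the nuclear retained class, NEAT1 lies at chr11:65422774-65445540 on the plus strand, with 22767 exonic bases. Its level was 81.6 CPM in Input replicate 1 and 1326 CPM in Input replicate 2, and 31.1 and 230.3 CPM in the IPs (counts of 1425, 15494, 648 and 4048). The groups overlapped, because IP replicate 2 was above Input replicate 1, although each IP was below its own Input. The log2 ratios within replicates 1 and 2 were -1.38 and -2.52, so that the IP level was 38.1% and 17.4% of the Input level. The log2 fold change over the 4 libraries was -2.43 ± 1.28 (SE; edgeR adjusted p = 0.210), and with the replicate block -1.97 ± 0.26 (adjusted p = 0.000192). Without Input replicate 2 it was 0.54 (adjusted p = 0.921), and without IP replicate 2 it was -4.43, called depleted.

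MALAT1 lies some way downstream on the same strand, at chr11:65497640-65508073, with 10434 exonic bases. It was at 758 and 4084 CPM in Input replicates 1 and 2 and at 350.5 and 1009 CPM in the IPs. Again IP replicate 2 exceeded Input replicate 1 and the groups overlapped. By level, MALAT1 ranked 87th and 9th among tested genes in the Inputs and 707th and 137th in the IPs, with no correction for length. The log2 ratios were -1.11 and -2.02 in replicates 1 and 2. The log2 fold change was -1.83 ± 0.81 (SE; edgeR adjusted p = 0.142), and -1.57 ± 0.23 with the replicate block (adjusted p = 6.05e-05). Without Input replicate 2 the value was -0.30 (adjusted p = 0.647). Of the MALAT1 exon, 83.7% lies opposite to exons of other genes, 77.8% opposite to TALAM1. The strand setting of the counting is not given in the sources used here, so reads of MALAT1 and of its antisense partner may not be told apart.

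In its RT-qPCR the study used MALAT1 as the reference RNA for nuclear extracts, and the primers are shown because they place that assay on the transcript. The pair matched once each in the MALAT1 transcript, at chr11:65499299-65499318 (forward) and chr11:65499363-65499382 (reverse, GRCh38), and spans 84 bases from transcript base 1660.
MALAT1 forward primer: gacggaggttgagatgaagc
MALAT1 reverse primer: attcggggctctgtagtcct

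KCNQ1OT1 is at chr11:2597308-2700003 on the minus strand, antisense to the potassium channel gene KCNQ1. Its level was 10.02 and 59.3 CPM in the Inputs and 5.76 and 16.4 CPM in the IPs. The pattern was that of MALAT1, with IP replicate 2 above Input replicate 1. Its log2 ratios were -0.75 and -1.82, and its log2 fold change was -1.64 ± 0.81 (SE; edgeR adjusted p = 0.181), or -1.39 ± 0.24 with the replicate block (adjusted p = 0.00067). Without Input replicate 2 it was -0.002 (adjusted p = 0.998). Annotated models of KCNQ1OT1 differ widely, from a longest transcript of 91667 bases to a canonical one of 679, and which of them was counted is not given in the sources used here.

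The exported lncRNAs were measured with less spread. NORAD stood at 153 and 193 CPM in the Inputs and at 84.7 and 79.2 CPM in the IPs. Both IP libraries were below both Input libraries. For NORAD the log2 fold change was -1.08 ± 0.24 (SE; edgeR adjusted p = 0.0238), a level 2.11-fold lower in the IP, with log2 ratios of -0.85 and -1.28 in the replicates. The call was lost when either IP library was left out (-1.08 and adjusted p = 0.0747 without that of replicate 1, -0.97 and adjusted p = 0.102 without that of replicate 2). Of the 50-base words of the NORAD transcript, 34.9% also occur in other annotated genes, the most in OVCH1-AS1, so its count depends on how reads with several alignments were treated.

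OIP5-AS1, known as cyrano and named for the mitotic gene OIP5 beside it, lies at chr15:41283958-41322392 on the plus strand. It was at 64.0 and 59.0 CPM in the Inputs and at 36.6 and 16.9 CPM in the IPs. The Inputs were close to each other and both IPs lay below them, but the IP of replicate 2 was 0.461 times that of replicate 1. Its log2 ratios were -0.80 and -1.77. The log2 fold change was -1.20 ± 0.37 (SE; edgeR adjusted p = 0.0552), just short of the threshold, and -1.28 ± 0.23 with the replicate block (adjusted p = 0.00101). It was called depleted in 10 of the 12 alternative fits, all but that with other size factors (RLE) and that without IP replicate 2.

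CYTOR, an lncRNA studied for its part in cancer cell growth, lies at chr2:87454781-87636740 on the plus strand. Its counts were low, 291 and 206 in the Inputs and 121 and 109 in the IPs, and its lowest count of 109 has an exact Poisson 95% interval of 89.5 to 131 (counting error only). In CPM these were 16.7 and 17.6 in the Inputs and 5.81 and 6.20 in the IPs. The replicates lay close to each other, and the groups did not overlap. For CYTOR the log2 fold change was -1.51 ± 0.24 (SE; edgeR adjusted p = 0.0118), a level 2.85-fold lower in the IP, with log2 ratios of -1.44 in both replicates. CYTOR was called depleted in all 12 alternative fits. A near copy, MIR4435-2HG, holds 54.0% of the 50-base words of CYTOR transcripts, so reads of the pair may have been split or dropped in the counting. MIR4435-2HG was at 24.2 and 31.2 CPM in the Inputs and 20.3 and 19 CPM in the IPs (log2 fold change -0.49 ± 0.23, SE; edgeR adjusted p = 0.169).

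TUG1, which takes part in chromatin regulation and is found in both compartments, lies at chr22:30969245-30979395 on the plus strand. Its level was 56.8 and 54.5 CPM in the Inputs and 37.6 and 33.3 CPM in the IPs. The groups did not overlap. For TUG1 the log2 fold change was -0.65 ± 0.21 (SE; edgeR adjusted p = 0.0686), and with the replicate block the same size passed the p threshold (adjusted p = 0.00208) but not the fold threshold.

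PVT1, the neighbour of MYC at chr8:127794526-128187101 on the plus strand, was at 23.8 and 41.3 CPM in the Inputs and at 14.6 and 23.6 CPM in the IPs. IP replicate 2 was just below Input replicate 1. The log2 fold change was -0.76 ± 0.35 (SE; edgeR adjusted p = 0.158), with log2 ratios of -0.68 and -0.79, and with the replicate block -0.75 (adjusted p = 0.000999), again short of the fold threshold.

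**Figure D2:**
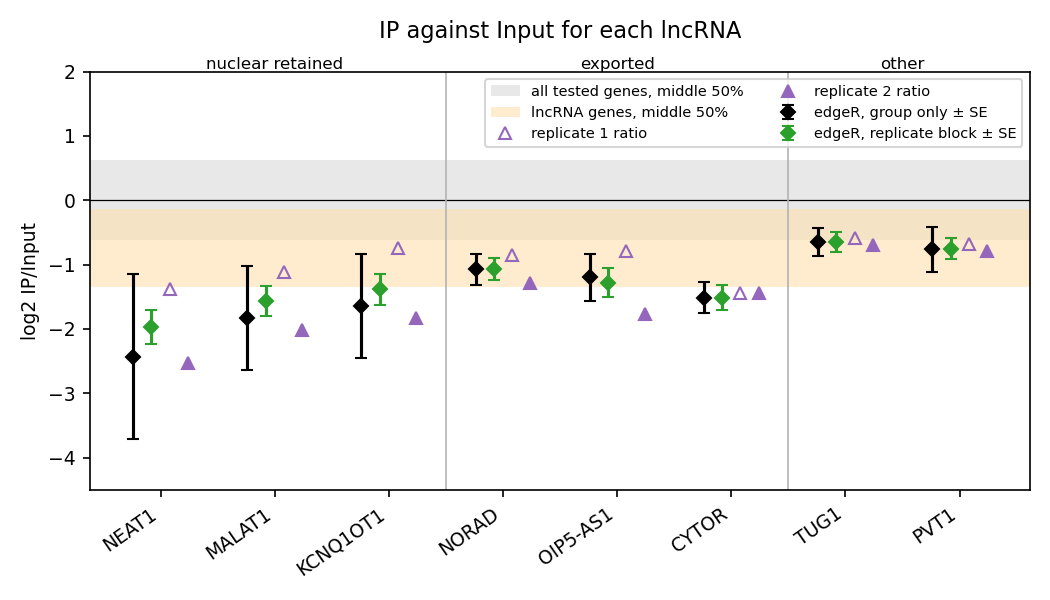
Log2 IP/Input of each lncRNA: triangles are the ratios within replicate 1 (open) and replicate 2 (filled), diamonds the edgeR log2 fold change ± SE with group only (black) and with the replicate block (green). Bands hold the middle 50% of all tested genes (grey) and of lncRNA genes (orange). The SE of NEAT1 is 1.28 with group only and 0.26 with the block, and all symbols lie below 0.

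Both IP libraries were below both Input libraries for 5 of the 8 lncRNAs, the exported class, TUG1 and PVT1. This held for 31.9% of all tested genes and 48.1% of lncRNA genes. A log2 ratio below -1 in both replicates was found for 3 of the 8 (NEAT1, MALAT1 and CYTOR), against 6.96% of tested genes and 10.4% of lncRNA genes. NEAT1 and MALAT1 thus had low ratios in each replicate and yet were not called with group only. Their coefficients of variation between replicates, as estimated by edgeR, were 0.777 and 0.525, and that of KCNQ1OT1 was 0.534. Those of the exported lncRNAs were 0.268 for OIP5-AS1, 0.193 for NORAD and 0.198 for CYTOR.

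The replicates differed far more in the nuclear retained lncRNAs than in the exported ones. From Input replicate 1 to Input replicate 2, NEAT1 differed 16.2-fold, KCNQ1OT1 5.92-fold and MALAT1 5.39-fold, replicate 2 being higher. The exported lncRNAs differed by 1.27-fold for NORAD, 0.922-fold for OIP5-AS1 and 1.06-fold for CYTOR, TUG1 by 0.960-fold and PVT1 by 1.74-fold. An Input difference at least as large as that of NEAT1, in either direction, was found in 0.0205% of tested genes, as that of KCNQ1OT1 in 0.294% and as that of MALAT1 in 0.369%. For the exported lncRNAs these shares were 50.1%, 81.5% and 87.2%. With 1 library for each group and replicate number these are descriptions, with no test.

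The IP libraries differed in the same direction and by less for the nuclear class. IP replicate 2 was above IP replicate 1 by 7.40-fold for NEAT1, 2.88-fold for MALAT1 and 2.84-fold for KCNQ1OT1. For OIP5-AS1 it was lower, and a difference of that size was found in 3.47% of tested genes. As a result the log2 ratio was lower in replicate 2 than in replicate 1 by 1.15 for NEAT1, 1.08 for KCNQ1OT1, 0.98 for OIP5-AS1, 0.90 for MALAT1 and 0.44 for NORAD, and differed by 0.01 for CYTOR.

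**Figure D3:**
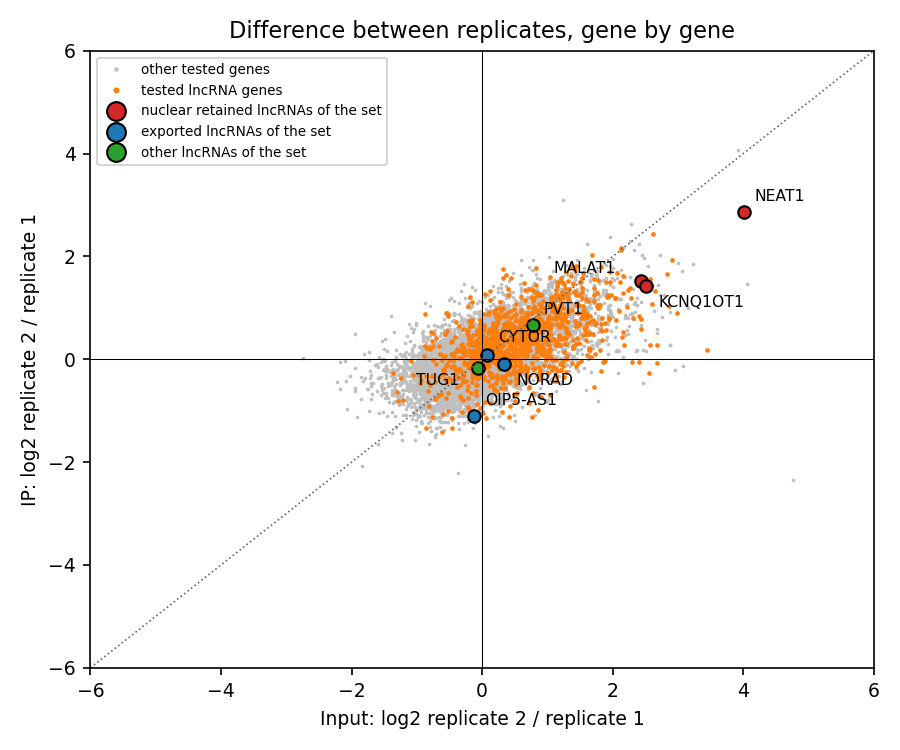
Log2 difference between replicate 2 and replicate 1 (CPM + 0.5) in the Input (horizontal) and IP (vertical) for every tested gene, with lncRNA genes in orange and the 8 lncRNAs as large points. The nuclear retained lncRNAs lie at 2.43 to 4.01 on the Input axis and under the dotted line of equal difference, and the exported ones within 0.34 of 0 on that axis.

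Expressed as classes, the mean log2 CPM of the nuclear retained lncRNAs exceeded that of the exported ones by 0.65 in Input replicate 1 and 3.53 in Input replicate 2, a 7.38-fold change of the quotient, and by 0.60 and 2.91 in the IPs. The quotient of counts within a library, which no scaling touches, moved likewise. Neither is corrected for length, so only the change between libraries can be read. MALAT1 had 4.97 times the reads of NORAD in Input replicate 1 and 21.1 times in Input replicate 2, and 4.14 and 12.7 times in the IPs. NEAT1 had 0.535 and 6.86 times the reads of NORAD in the Inputs and 0.367 and 2.91 times in the IPs.

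In the ratio of IP to Input the classes were closer. The mean log2 ratio was -1.08 for the nuclear retained and -1.03 for the exported lncRNAs in replicate 1, a difference of -0.05, and -2.12 and -1.50 in replicate 2, a difference of -0.62. The mean difference was -0.34 ± 0.41 (SD, n = 2), less than its spread between replicates. Leaving out 1 library at a time moved it between -1.78 (without Input replicate 1) and 1.10 (without Input replicate 2), so these libraries do not fix its direction. Dropping IP replicate 2 gave -1.49, and dropping IP replicate 1 gave 0.82.

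Per kilobase of exonic sequence, MALAT1 was the most abundant member in both Inputs, at 72.7 and 391 CPM per kb, and KCNQ1OT1 the least, at 0.108 and 0.640. Between them NORAD (28.2 and 35.8) was above TUG1 (5.60 and 5.37) and TUG1 above OIP5-AS1 (2.86 and 2.64) in both Inputs. NEAT1, at 3.58 and 58.2, lay below TUG1 in replicate 1 and above NORAD in replicate 2, so it has no fixed place in this order. PVT1 (0.935 and 1.62) and CYTOR (0.937 and 0.991) did not differ beyond the spread of PVT1. The order depends on the exon model, since per kilobase of its longest transcript PVT1 was at 9.70 and 16.8 CPM. For KCNQ1OT1 the length used was 92625 bases, while its canonical transcript has 679, so its place as the least rests on the long model.

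The lncRNA genes as a class showed a smaller replicate difference in the same direction. Their median log2 difference between Input replicate 2 and replicate 1 was 0.50, against -0.03 for protein-coding genes. The lncRNA genes took 0.763% and 1.86% of the Input counts and 0.247% and 0.453% of the IP counts, and without NEAT1 and MALAT1 0.663% and 1.17% of the Input and 0.218% and 0.346% of the IP counts. MALAT1 alone took 0.0902% and 0.518% of the Input counts. The Input library with more lncRNA reads was also the shallowest and that with more ORC1 reads, and the part of either in the difference was not tested.

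Patterns over the 4 libraries were compared by the Euclidean distance of centred log2 (CPM + 0.5) among 10405 tested genes with a mean of at least 5 CPM. Nearest to MALAT1 were FTX (0.26), a noncoding gene of the X-inactivation centre, KCNQ1OT1 (0.29) and MIR9-1HG (0.35), the host of a microRNA. The nearest to NEAT1 lay farther off and were MIR29B2CHG (1.40), SNORD3A (1.42) and RNU4-2 (1.503), a microRNA host and genes of a small nucleolar and a small nuclear RNA. Nearest to NORAD were the protein-coding genes NEMP1 (0.05), CRADD (0.08) and SPRYD4 (0.10). With 4 libraries these distances describe the libraries and carry no test.

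Other well-studied lncRNAs were listed for comparison, and 17 of the 24 were tested. Of these 15 had a log2 fold change below 0, beside 7283 of all 14645 genes tested. The median of the 17 was -1.13, beside -0.71 over all tested lncRNA genes. With group only 2 of the 17 were depleted and 0 enriched, and 9 were depleted with the replicate block. In the same fits 6.75% and 32.5% of lncRNA genes, and 8.3% and 13.4% of all tested genes, were depleted. Without IP replicate 1 the median of the 17 was -0.58. The depleted ones with group only were TERC, the template RNA of telomerase (-2.37 ± 0.51, SE; edgeR adjusted p = 0.0211), and DANCR (-1.09 ± 0.25; adjusted p = 0.0245). FTX resembled the nuclear class, at 2.52 and 18.4 CPM in the Inputs and 1.30 and 4.04 CPM in the IPs, with a log2 fold change of -1.96 (adjusted p = 0.158, and 0.000202 with the replicate block). LINC-PINT (3.95 and 26.2 CPM) and MIAT (0.859 and 3.68 CPM) likewise differed 6.63-fold and 4.28-fold between the Inputs. MIAT rests on only 15 and 43 Input reads. Such a difference was not confined to lncRNAs. The mRNA of the RNA export factor DDX39B differed 4.54-fold (9.85 and 44.8 CPM), the only 1 of 10 such mRNAs higher in Input replicate 2. FIRRE, a nuclear lncRNA that anchors chromatin, was at 4.98 and 5.22 CPM in the Inputs and 7.20 and 8.02 CPM in the IPs (log2 fold change 0.58 ± 0.28, SE; edgeR adjusted p = 0.177).

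Genes that share a locus with the lncRNAs did not share their direction in every case. Of 11 listed, 9 were tested, and with group only 3 were enriched and 1 was depleted. Over all tested genes 10.5% were enriched and 8.3% depleted. MORC2, beside TUG1, stood at 56.5 and 50.2 CPM in the Inputs and 137 and 114 CPM in the IPs (log2 fold change 1.23 ± 0.23, SE; edgeR adjusted p = 0.0161). MYC, the transcription factor gene beside PVT1, was enriched with a log2 fold change of 1.06 (adjusted p = 0.0303), and NUSAP1, a spindle protein gene beside OIP5-AS1, with 1.63 (adjusted p = 0.0270). NUSAP1 shares 195 exonic bases with OIP5-AS1 on the same strand, where reads cannot be assigned by strand. OIP5 itself was depleted (-1.55, adjusted p = 0.0244), and it shares 759 exonic bases with OIP5-AS1 on the opposite strand. KCNQ1 (-0.30), CDKN1C (-0.21) and FRMD8 (0.00) were not called.

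The mRNAs of paraspeckle, nuclear speckle and RNA export proteins were on the other side of 0 by their medians with TMM scaling, beside 10.5% enriched and 8.3% depleted among all tested genes. Of 10 mRNAs of paraspeckle proteins 5 were enriched and 1 was depleted, with a median of 1.00. The enriched ones were PSPC1 (1.88), SFPQ (1.87), NONO (1.55) and HNRNPK (1.51), and SMARCA4 (1.75), which encodes a chromatin remodeller. SFPQ was at 610.3 and 407 CPM in the Inputs and 2198 and 1520 CPM in the IPs, with no overlap, whereas NEAT1, the RNA these proteins bind, had IP levels below Input in each replicate. HNRNPH3 was depleted (-1.03, edgeR adjusted p = 0.0437), but not with the replicate block (log2 fold change -0.9985, just short of the fold threshold). With library size only, 3 of the 10 paraspeckle protein mRNAs were enriched and 2 depleted, with a median of 0.38. That scaling gave 380 enriched and 3257 depleted genes in all.

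Of 8 mRNAs of nuclear speckle proteins, 3 were enriched, namely SRRM1 (2.13), SRRM2 (1.502) and SON (1.33), and 0 depleted, with a median of 0.46. This median was 0.03 without Input replicate 2, 1.13 without Input replicate 1 and -0.12 with library size only. Among mRNAs of NORAD partners, PUM2 (-0.26), KHDRBS1 (0.66) and RBMX (0.21) were not called. Of 10 mRNAs of RNA export factors, 5 were enriched and 1 was depleted, with a median of 0.93, while 10.5% of all tested genes were enriched and 8.3% depleted. Enriched were among others THOC2 (2.00) and NXF1 (1.16), the latter the main mRNA export receptor, while NXT1, which encodes its partner, was depleted (-1.70, edgeR adjusted p = 0.0112). With library size only, 2 of the 10 export factor mRNAs were enriched and 2 depleted, with a median of 0.32. Upper-quartile scaling gave 3 enriched and 1 depleted, with a median of 0.75. These are fold changes of mRNAs, and no protein was measured.

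**Figure D4:**
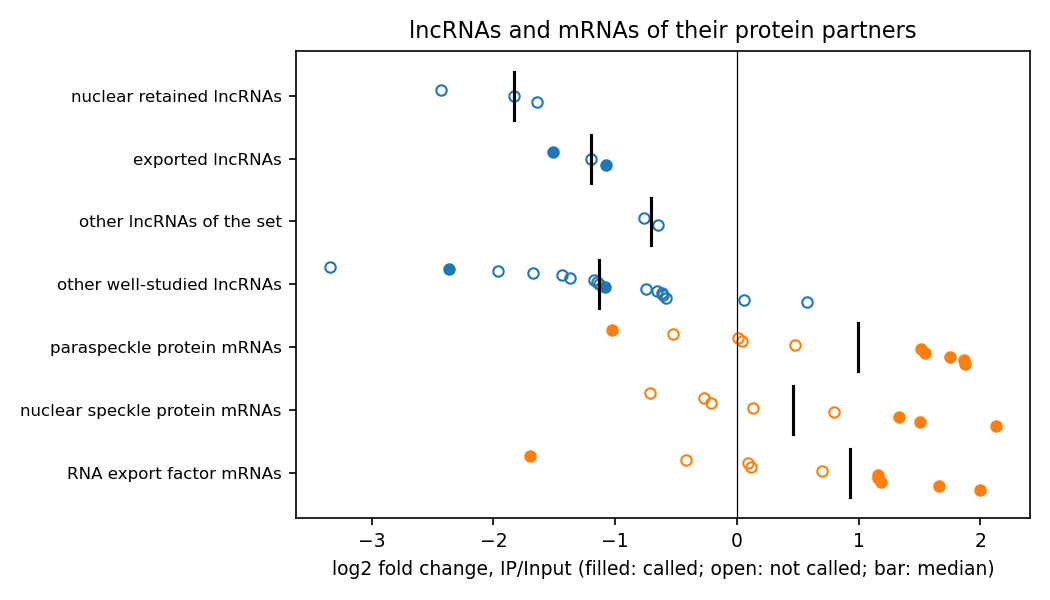
Log2 fold change of IP over Input (edgeR, group only) of the lncRNAs by class, of other well-studied lncRNAs (blue) and of mRNAs of their protein partners (orange). Filled points were called, open points were not, and bars are medians, which lie below 0 for the 4 lncRNA lists and above 0 for the 3 mRNA lists with TMM scaling. With library size only, that of the nuclear speckle list is -0.12.

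Under the 12 alternative fits, 95 of the 96 values of the 8 lncRNAs were below 0, the exception being NEAT1 without Input replicate 2. Of these 96 values 46 were called depleted and 0 enriched. In the same fits 846 to 3257 genes in all were called depleted, the most with library size only, which gave 5 of the 46. CYTOR was called in 12 of 12 fits, NORAD and OIP5-AS1 in 10, MALAT1 and KCNQ1OT1 in 4, PVT1 in 3, NEAT1 in 2 and TUG1 in 1.

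**Figure D5:**
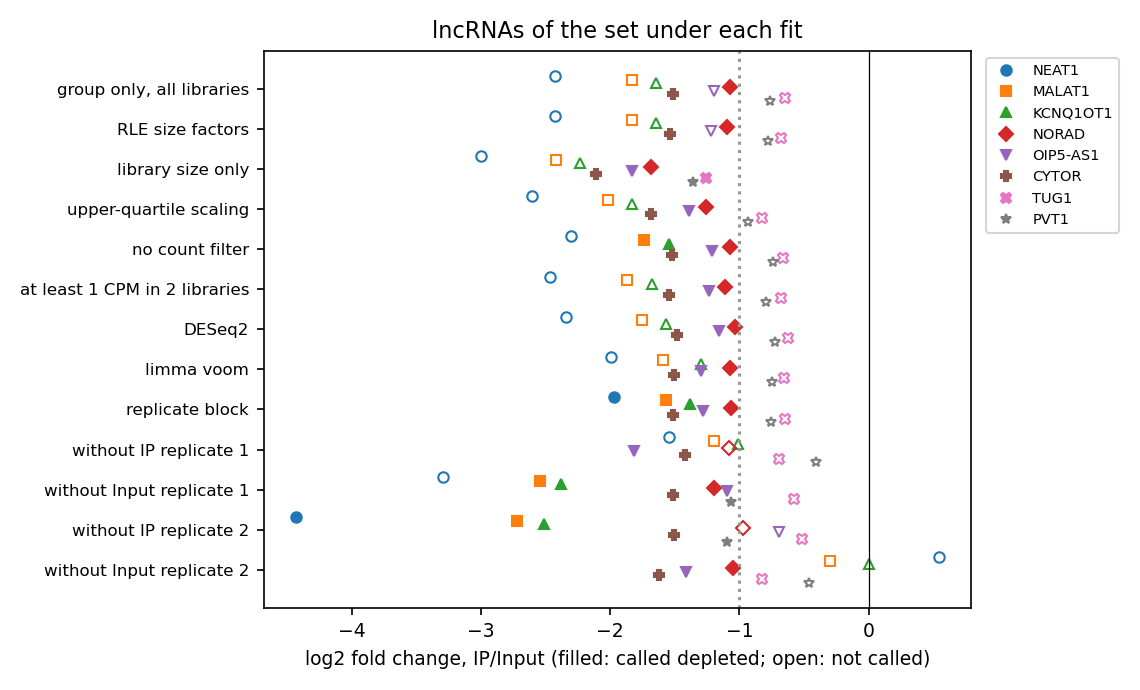
Log2 fold change of each of the 8 lncRNAs in the fit with group only and in the 12 alternatives. Filled symbols were called depleted, and the dotted line marks the fold threshold of -1. NEAT1 ranges from -4.43 to 0.54 and CYTOR from -2.11 to -1.42.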

How the data were processed

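The authors deposited raw read counts per gene of 4 RIP-seq libraries. According to the study and the submitters' processing notes, Trimmomatic served for trimming, STAR for alignment to hg19 (GRCh37) and featureCounts for counting, and reads on unplaced contigs had been removed. The annotation release, the strand setting and the handling of multimapped reads are not given in the sources used here. Coordinates, exon models and sequences are those of GENCODE v44 (GRCh38), joined by gene identifier.

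Counts were tested with edgeR 4.0.16 in R 4.3.3 (filterByExpr, TMM, robust quasi-likelihood test, group only, Benjamini-Hochberg adjustment over all tested genes). DESeq2 1.42.0 and limma voom 3.58.1, other scalings and filters, a replicate block and leaving out each library were alternatives. Ratios within replicates used log2 (CPM + 0.5). Labels tie Input and IP of a number to the same RIP replicate, and their deviations from group means correlated (r = 0.637 over 14645 genes). Reads carry no molecular identifiers, so intervals cover counting error only. The named genes were all members and the listed lncRNA, locus and partner genes, plus the 3 nearest genes to NEAT1, MALAT1 and NORAD. Members and lists were chosen with earlier results of these data known. Some genes of the lists are not reported here.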

Additional observations from a re-analysis of the deposited data

How the results depend on the processing

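Scaling by library size alone moved the median log2 fold change of all genes by -0.60 and the calls from 1542 enriched and 1215 depleted genes (55.9% enriched) to 380 and 3257 (10.4%), with 5 of the 8 lncRNAs depleted. Upper-quartile scaling moved the median by -0.17 and the split to 41.2% enriched, with 3 depleted. Leaving out Input replicate 2 moved the median by -0.15 and the split to 43.9%. The replicate block gave 1960 enriched and 1957 depleted genes, and it changed the calls of NEAT1, MALAT1, KCNQ1OT1 and OIP5-AS1 to depleted but not those of the other 4 lncRNAs. Among the 8, DESeq2, limma voom and the filter of 1 CPM added OIP5-AS1, and no filter added MALAT1, KCNQ1OT1 and OIP5-AS1. Leaving out each library in turn gave -4.43 to 0.54 for NEAT1, -2.72 to -0.30 for MALAT1, -2.52 to -0.002 for KCNQ1OT1, -1.19 to -0.97 for NORAD, -1.82 to -0.70 for OIP5-AS1, -1.62 to -1.42 for CYTOR, -0.83 to -0.51 for TUG1 and -1.10 to -0.41 for PVT1. MALAT1, KCNQ1OT1 and PVT1 became depleted calls when Input replicate 1 was dropped and again when IP replicate 2 was, and OIP5-AS1 in each of these fits but the latter. In these fits the lone library of an arm was assumed to vary like the other group. The genes called then ranged from 1291 to 1936 enriched and 846 to 1801 depleted. The nuclear minus exported mean log2 ratio (-0.34) ranged from -1.78 to 1.10 and stayed below 0 under the other scalings, pseudocounts and lists of members tried. Small replicate differences changed sign with the scaling. In the Input, that of OIP5-AS1 (-0.12) turned to 0.0303 with upper-quartile scaling, that of TUG1 (-0.06) to 0.0379 with library size only and 0.0878 with upper-quartile scaling, and that of CYTOR (0.08) to -0.00886 with RLE. In the IP, that of TUG1 (-0.17) turned to 0.0211 with library size only and that of NORAD (-0.10) to 0.0972 and 0.0634 with library size only and upper-quartile scaling. The cause was not tested. The lowest count of the 8 lncRNAs was 109, for CYTOR.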
